A study of Mus musculus with 7 samples.

Results

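Glycogen synthesis and breakdown is described here through 7 genes of the 21121 listed in each library, chosen by symbol for their place in the pathway: Ugp2, Gyg, Gys1 and Gbe1, which serve synthesis, and the phosphorylases Pygl, Pygb and Pygm, which serve breakdown. The cells came from lungs of C57BL/6 mice at embryonic day 13.5 (E13.5, 1 library), E15.5 (1 library), E18.5 (2 libraries), postnatal day 14 (P14, 1 library) and P56 (2 libraries). At every stage they were sorted as live cells positive for Epcam, an epithelial surface protein, and negative for CD31, CD45, Ter119 and CD146, which mark vessel and blood cells. No genotype or treatment differed between the stages, so the stages are compared with each other. RNA was read by 3' SAGE sequencing, in which 1 short tag near the 3' end stands for 1 amplified transcript. The sort takes the whole Epcam-positive fraction, and in such bulk samples fewer cells of a type and less RNA per cell cannot be told apart.

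Glycogen is a branched polymer of glucose that a cell builds as a store and later takes apart. Ugp2 makes the activated sugar UDP-glucose, glycogenin (Gyg) starts the chain, glycogen synthase (Gys1) lengthens it and the branching enzyme (Gbe1) adds branches, while phosphorylase releases glucose 1-phosphate from the chain ends. In the fetal lung, precursors of alveolar type 2 cells are known for large glycogen stores that are used up around birth, when surfactant phospholipid is made. The 3 phosphorylases are encoded by separate genes and are named for the tissue in which each predominates: liver (Pygl), brain (Pygb) and muscle (Pygm).

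All 7 genes are annotated as protein coding in GENCODE vM21 on the GRCm38 build, on which the synthesis genes lie at chr11:21321138-21371201 (Ugp2, minus strand), chr3:20122084-20155317 (Gyg, minus strand), chr7:45434844-45456619 (Gys1, plus strand) and chr16:70313949-70569716 (Gbe1, plus strand). The phosphorylase genes lie at chr12:70190811-70231488 (Pygl, minus strand), chr2:150786735-150831758 (Pygb, plus strand) and chr19:6384399-6398459 (Pygm, plus strand). The 250 bases before the RefSeq start are shown for Pygl and Pygb, since these 2 phosphorylases carried most reads of the family and differed in their course over the stages. The Pygl sequence covers chr12:70227684-70227933 on the minus strand and the Pygb sequence chr2:150786546-150786795 on the plus strand (RefSeq, GRCm38.p6). The RefSeq starts of both genes lie inside their GENCODE spans, which hold the whole Pygl window and the last part of the Pygb window. Capitals mark GC boxes (GGGCGG read on either strand) and the core of hypoxia response elements (ACGTG read on either strand), whose letters also lie within 1 kind of E-box.
Pygl: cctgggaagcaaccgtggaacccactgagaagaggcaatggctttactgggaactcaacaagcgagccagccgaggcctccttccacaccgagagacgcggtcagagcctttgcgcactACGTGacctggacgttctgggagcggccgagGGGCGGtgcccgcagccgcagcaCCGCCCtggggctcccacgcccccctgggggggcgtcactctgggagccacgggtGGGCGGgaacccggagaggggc
Pygb: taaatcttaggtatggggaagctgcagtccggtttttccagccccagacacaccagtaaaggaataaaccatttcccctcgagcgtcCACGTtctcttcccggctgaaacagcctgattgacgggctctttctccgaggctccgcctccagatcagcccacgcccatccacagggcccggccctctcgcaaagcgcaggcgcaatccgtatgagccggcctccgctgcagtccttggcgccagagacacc
The Pygl window was 69.2% G or C, with 20 CpG dinucleotides, 3 GC boxes and 1 ACGTG core, and the Pygb window was 60% G or C, with 17 CpG dinucleotides, no GC box and 1 ACGTG core. Among 32851 RefSeq promoter windows of the same length, 32.7% held a GC box and 16.6% an ACGTG core on either strand, and the median window was 52.4% G or C with 6 CpG dinucleotides. Neither window held a TATA box (TATAAA, in 12.4% of all windows) or a CCAAT box (in 33.8%). These are matches of letters, and binding of a factor was not measured.

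Depth ranged from 2559927 to 3895740 reads a library, and 1 read was worth 0.236 to 0.385 units, the scaled tag counts in which values are given. The epithelial genes Epcam (148 to 643 reads), Cdh1 (439 to 758) and Nkx2-1 (2124 to 5225) had reads in every library, whereas Ptprc, which encodes CD45, and Pecam1, which encodes CD31, had 0 to 4 reads and Mcam, which encodes CD146, 0 to 26. The 2 libraries of E18.5 and the 2 of P56 differed by a chi-square of 9.36 and 7.21 per degree of freedom, above sampling noise, and pairs from 2 stages by 28.4 to 161. Whether the paired libraries of E18.5 and P56 were separate animals is not stated in the labels, so p-values measure only the spread between these samples. The variance of the 3 stages with 1 library was taken to equal that seen at E18.5 and P56.

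Over development the liver-type phosphorylase Pygl was the only tested gene of the 7 that passed the test. It was highest at E18.5 and low at E13.5, P14 and P56. Its mean was 7.33-fold lower at P56 than at E18.5, and 5.08- to 10.4-fold lower with 1 library of these 2 stages left out. Pygl had 12.1 units (E13.5), 39.8 (E15.5), 43.1 and 81.4 (E18.5), 11.6 (P14), and 5.98 and 11.01 (P56), from 51, 111, 112, 216, 42, 21 and 34 reads. Both E18.5 libraries were above all others, the E15.5 library came next, and the E13.5, P14 and P56 libraries lay together at the bottom. A difference over the 5 stages passed limma's moderated F test (F = 14.1, Benjamini-Hochberg adjusted p = 0.0110), and edgeR's quasi-likelihood test gave an adjusted p of 0.000478. The limma call was lost with no filter on low values (adjusted p = 0.216) and with non-robust variances (0.0701). It was also lost with any 1 of the 4 replicated libraries left out. With the 1 residual degree of freedom then left, limma could call no gene, so those fits cannot decide whether the Pygl call holds. Of all 12964 genes tested, 30.3% passed this F test in limma and 36.7% in edgeR, and 1 of the 6 glycogen genes tested did in each. The adjusted p of the other 5 in limma's F test was 0.166 for Gys1, 0.190 for Gyg, 0.221 for Gbe1, 0.561 for Pygb and 0.588 for Ugp2. Pygm did not pass the filter on low values and was not tested.

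**Figure D1:**
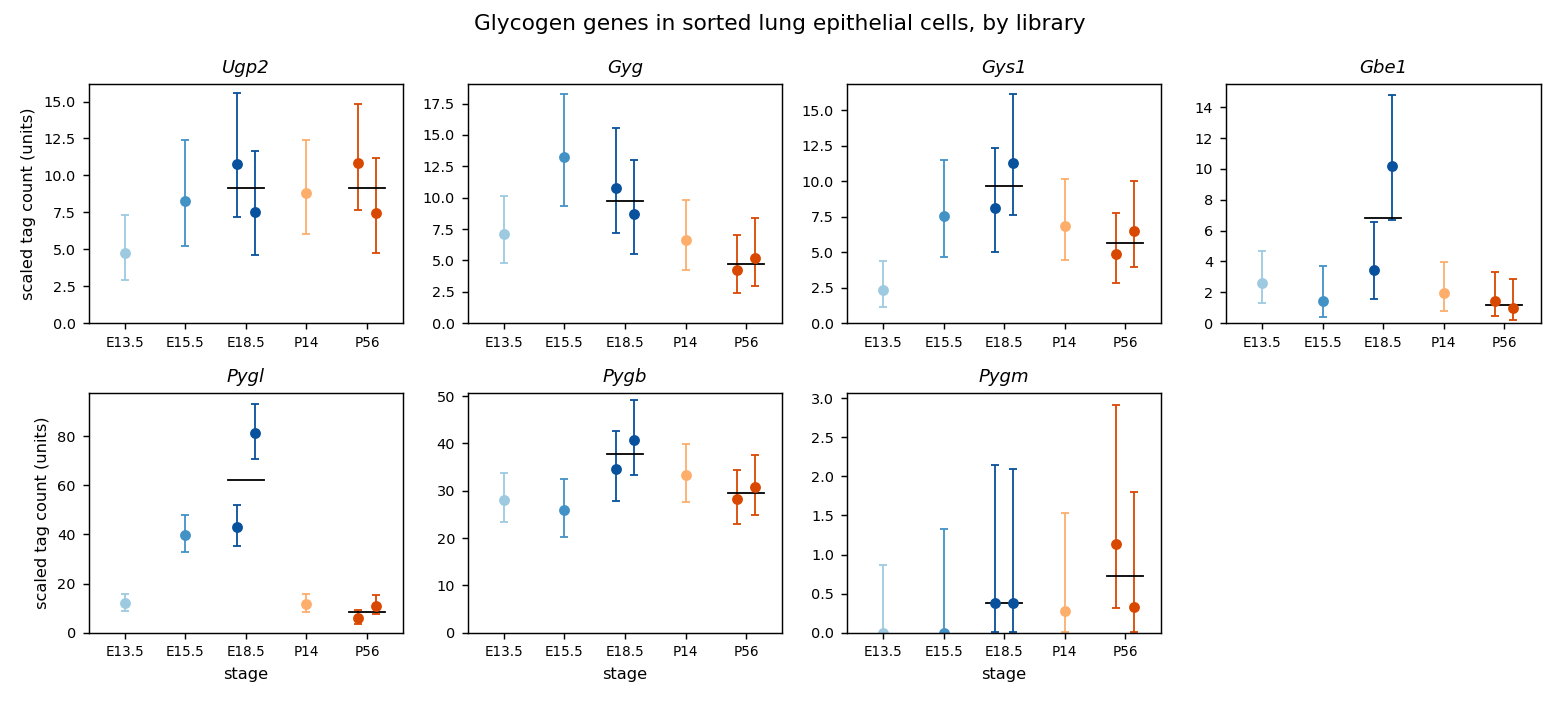
Scaled tag count (units, each panel with its own linear axis starting at 0) of the 7 glycogen genes at each stage. Points are libraries, bars their exact 95% Poisson intervals (counting error only), and black lines the means of the 2 libraries at E18.5 and P56. Pygl reached 43.1 and 81.4 units at E18.5, whereas Pygb stayed between 25.8 and 40.7 units in all 7 libraries.

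The comparison of P56 with E18.5 asks how the adult epithelium differs from that just before birth, and it is the only one with 2 libraries on each side. Pygl averaged 8.49 ± 3.56 units at P56 and 62.3 ± 27.1 units at E18.5 (SD, n = 2 each). The log2 change was -2.72 (SE 0.41, 95% interval -3.68 to -1.76), with an adjusted p of 0.00607 in limma-trend, 0.000393 in edgeR and 1.06e-05 in DESeq2. Pygl was the 1 of 6 tested glycogen genes called in this comparison, in which limma called 14.2% of all tested genes (6.15% of all tested being lower at P56) and edgeR 16.2%. Without any filter on low values the limma adjusted p for Pygl was 0.179. With 1 of the 4 libraries left out, limma could call no gene of the whole table, so those fits cannot decide whether the Pygl call holds. The edgeR log2 changes of Pygl then ran from -3.43 to -2.43.

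Gyg, Gbe1, Gys1 and Pygb were also lower in both P56 libraries than in both E18.5 libraries, but none of these differences passed the test. Libraries lower at P56 without overlap were found for 25.0% of all genes tested, and here for Gyg, Gys1, Pygb and Pygl. Gbe1 is left out of this count, since it passed the filter on low values only through its E18.5 libraries and so had to be higher there. Gyg, the protein primer of the chain, averaged 4.73 ± 0.646 units at P56 and 9.72 ± 1.50 units at E18.5, a log2 change of -0.90 (95% interval -1.75 to -0.06, limma adjusted p = 0.148). Gys1, the enzyme that lengthens the chain, averaged 5.66 ± 1.16 units at P56 and 9.69 ± 2.28 units at E18.5, a log2 change of -0.68 (95% interval -1.60 to 0.25, limma adjusted p = 0.310). The branching enzyme Gbe1 averaged 1.20 ± 0.319 units at P56 and 6.82 ± 4.74 units at E18.5, a log2 change of -1.69 (95% interval -3.04 to -0.35, limma adjusted p = 0.0977). Gbe1 was carried by few reads, 8 in both P56 libraries together and 36 in both E18.5 libraries, 27 of them in the second one. Without the first E18.5 library the edgeR adjusted p of Gbe1 was 0.00486, which carries the same limit of the filter. Ugp2, which makes UDP-glucose, averaged 9.13 ± 2.38 units at P56 and 9.16 ± 2.29 units at E18.5, and the 95% interval of its log2 change ran from -0.90 to 0.89.

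Among the phosphorylases, Pygb took a different course from Pygl. It had 28.1 units (E13.5), 25.8 (E15.5), 34.7 and 40.7 (E18.5), 33.3 (P14), and 28.2 and 30.8 (P56). The highest library held 1.58 times the value of the lowest, against 13.6 times for Pygl. Between P56, at 29.5 ± 1.84 units, and E18.5, at 37.7 ± 4.27 units, the log2 change was -0.34 (95% interval -0.93 to 0.25, limma adjusted p = 0.421). The muscle-type gene Pygm had no read at E13.5 or E15.5, 1 read in each E18.5 library and at P14, and 4 and 1 reads at P56, or 8 reads in all. The limit that a count of 0 allows, set at 3 reads, was 0.709 units at E13.5 and 1.08 units at E15.5. Of 18 markers of smooth, skeletal and heart muscle, 15 were analysed here, and their sum ranged from 0.00254% to 0.00673% of reads. Among them Myh6, a heart myosin, had 16 to 101 reads in every library, Actc1, the cardiac actin, had 113 reads at P14 and 0 to 9 in the other 6 libraries, and Ckm, the muscle creatine kinase, had 1 read, at P14. In limma Acta2 was lower at P56 than at E18.5, and Myh6 and Myh4 were higher at E18.5 than at the early stages. Myh4 passed the filter on low values only through its E18.5 libraries (9 and 10 reads) and so had to be higher there. The part of the muscle markers in the few Pygm reads was not tested.

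Pygl therefore made up a changing share of the phosphorylase reads. It accounted for 30.0% of them (E13.5), 60.7% (E15.5), 55.2% and 66.5% (E18.5), 25.6% (P14), and 16.9% and 26.2% (P56). Its share exceeded that of Pygb at E15.5 and E18.5 and was below it in the other 4 libraries. The exact (Clopper-Pearson) 95% intervals ran from 23.2% to 37.5% (E13.5), 53.2% to 67.8% (E15.5), 48.1% to 62.1% and 61.0% to 71.6% (E18.5), 19.1% to 33.0% (P14), and 10.8% to 24.7% and 18.8% to 34.6% (P56). The E15.5 and E18.5 intervals did not overlap any of the E13.5, P14 and P56 intervals. A share of reads within 1 library does not depend on how libraries are scaled, and these intervals cover counting error only. Summed over the libraries of a stage, there were 0.283 Pygl reads per Pygb read at P56 and 1.66 at E18.5.

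**Figure D2:**
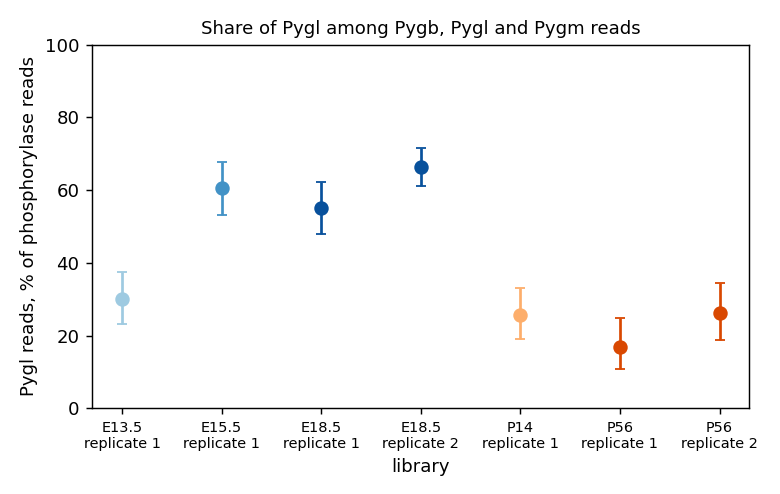
Share of Pygl among the reads of the 3 phosphorylase genes (vertical axis, percent) in each of the 7 libraries (horizontal axis). Points are libraries and bars exact 95% binomial intervals; the E15.5 and E18.5 libraries lie between 55.2% and 66.5%, the others between 16.9% and 30.0%.

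For the rise before birth, E18.5 was compared with the mean of E13.5 and E15.5 on the log2 scale. Pygl averaged 62.3 ± 27.1 units at E18.5 (SD, n = 2), against 12.1 units in the E13.5 library and 39.8 units in the E15.5 library, a log2 change of 1.39 (SE 0.41, limma adjusted p = 0.0411). Again it was 1 of the 6 tested glycogen genes called, where limma called 29.1% of all tested genes (15.8% of all tested being higher at E18.5) and edgeR 30.8%. The call rested on E13.5: against E13.5 alone the log2 change was 2.21 (limma adjusted p = 0.0165), and against E15.5 alone it was 0.56 (95% interval -0.61 to 1.74, adjusted p = 0.509). It also missed the limma threshold with libraries scaled to total reads (adjusted p = 0.0578), with no filter (0.252) and with non-robust variances (0.106), while edgeR gave 0.00897 and DESeq2 0.0413.

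The synthesis genes gave smaller or less certain differences in the same comparison. Gys1 had 2.36 units (E13.5), 7.54 (E15.5), 8.09 and 11.3 (E18.5), 6.88 (P14), and 4.84 and 6.48 (P56). Its E13.5 library was the lowest of the 7 and its E18.5 libraries the highest. The log2 change of Gys1 at E18.5 against the mean of both early stages was 0.98 (limma adjusted p = 0.103). Against the E13.5 library alone, with 10 Gys1 reads, it was 1.65 (limma adjusted p = 0.0401, and 0.274 in DESeq2). For Gbe1, with 2.60 units (E13.5), 1.44 (E15.5), 3.47 and 10.2 (E18.5), 1.93 (P14), and 1.42 and 0.972 (P56), the log2 change was 1.25 (limma adjusted p = 0.142). Ugp2 had 4.73 units (E13.5), 8.25 (E15.5), 10.8 and 7.54 (E18.5), 8.80 (P14), and 10.8 and 7.45 (P56), with a log2 change of 0.46 (limma adjusted p = 0.398). Its E13.5 library was the lowest, and the other 6 overlapped between stages. Gyg was highest at E15.5: it had 7.09 units (E13.5), 13.3 (E15.5), 10.8 and 8.67 (E18.5), 6.60 (P14), and 4.27 and 5.18 (P56). Its log2 change at E18.5 was -0.01 (limma adjusted p = 0.990). Pygb changed by 0.46 (limma adjusted p = 0.204).

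Both E18.5 libraries lay above all 5 others for Gys1, Pygb and Pygl, a pattern found for 10.2% of all genes tested. They did for Gbe1 too, which the filter on low values had selected through these libraries. Taking the stage means of Pygl in order, P56 (8.49), P14 (11.6) and E13.5 (12.1) were neighbours within counting error, while E15.5 (39.8) lay above E13.5 by more than it, and E18.5 (62.3) above E15.5 by less than the SD of the E18.5 libraries. The 7 genes together took 0.00619% of reads (E13.5), 0.0105% (E15.5), 0.0110% and 0.0151% (E18.5), 0.00660% (P14), and 0.00555% and 0.00595% (P56).

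E15.5 and E13.5 have 1 library each, so their difference carries counting error alone and no test. Pygl had 3.31 times as many units at E15.5 as at E13.5 (exact 95% interval of the read ratio 2.35 to 4.70). Gys1 had 3.19 times (1.44 to 7.58) and Gyg 1.87 times (1.13 to 3.14) as many at E15.5. These 3 intervals lay above 1, whereas those of Ugp2 (0.917 to 3.35), Gbe1 (0.128 to 1.86) and Pygb (0.676 to 1.24) spanned it.

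After birth, Pygl had 11.6 units in the P14 library, against 62.3 ± 27.1 units at E18.5 (SD, n = 2), 5.39-fold less. The log2 change of -2.26 (SE 0.50) missed the threshold in limma-trend (adjusted p = 0.0640) and passed it in edgeR (0.0142) and DESeq2 (0.00853). In this comparison limma called 3.11% of all genes tested and none of the 6 glycogen genes (1, Pygl, had an unadjusted p under 0.05), and edgeR called 5.29% and 1 of the 6. The other 5 had limma adjusted p-values of 0.388 to 0.989. Between P56 and P14 limma called 0.818% of all genes and edgeR 2.06%, and no glycogen gene passed in limma, edgeR or DESeq2, nor had any an unadjusted p under 0.05 in limma. The log2 change of Pygl between P56 and P14 was -0.46 (95% interval -1.63 to 0.72).

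**Figure D3:**
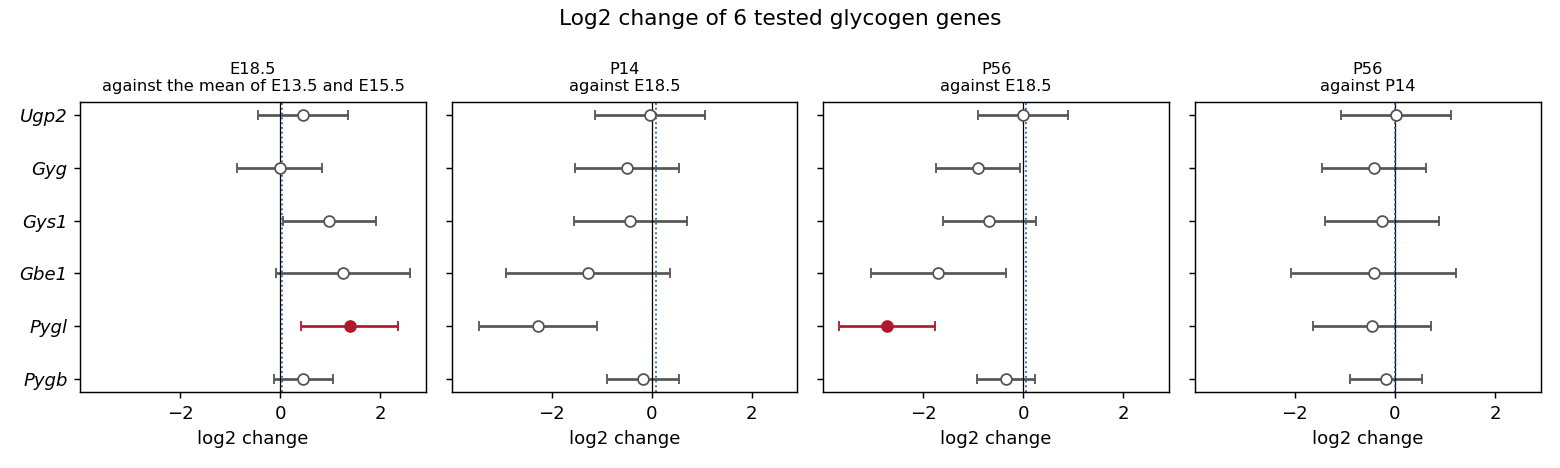
Log2 change (horizontal axis) of the 6 tested glycogen genes in 4 comparisons, with 95% intervals from limma-trend. Filled red points passed the adjusted p threshold of 0.05, and dotted lines mark the median change of all 12964 tested genes. Pygl passed at E18.5 against the early stages (1.39) and at P56 against E18.5 (-2.72).

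Other enzymes that act on glycogen and glucose phosphates were taken from a list of 13 gene symbols, of which 8 could be tested. At E18.5 against the early stages 3 of the 8 were called by limma, all higher, where 29.1% of all tested genes were called and 15.8% were higher, with a median log2 change of -0.15, against 0.03 for all tested genes. At P56 against E18.5 limma, edgeR and DESeq2 called 0 of the 8, with 1 (Pgm1) at an unadjusted limma p under 0.05, and their median log2 change was 0.06, as it was for all genes. Pgm2, a phosphoglucomutase whose symbol has been exchanged with that of Pgm1 between annotation releases, had 15.6 units (E13.5), 31.2 (E15.5), 57.8 and 64.1 (E18.5), 40.4 (P14), and 56.1 and 62.5 (P56). Its log2 change at E18.5 against the early stages was 1.42 (limma adjusted p = 0.00441). The lysosomal acid glucosidase Gaa, which degrades glycogen inside lysosomes, had 8.51 units (E13.5), 12.2 (E15.5), 22.3 and 20.3 (E18.5), 27.2 (P14), and 17.1 and 21.1 (P56) (0.99, limma adjusted p = 0.0381, and 0.269 in DESeq2). Stbd1, which binds glycogen and tethers it to membranes, had 10.2 units (E13.5), 8.97 (E15.5), 19.3 and 18.8 (E18.5), 27.2 (P14), and 21.6 and 21.1 (P56) (0.93, limma adjusted p = 0.0427, and 0.321 in DESeq2). In each of these 3 genes every library from E18.5 on lay above both earlier ones. They were named for their call against these same early libraries, and the share of all genes with this pattern was not counted. Total-read scaling, which shifts the median change of all genes in this comparison by -0.13, ended the limma calls of Gaa (adjusted p = 0.0652) and Stbd1 (0.0740). With 1 library left out, edgeR no longer called Stbd1 in any of the 4 cases (adjusted p = 0.0555 to 0.0804), nor Gaa without E18.5 replicate 1 (0.0538), P56 replicate 1 (0.0550) or P56 replicate 2 (0.0574).

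A second list held 19 genes that regulate synthase and phosphorylase, 14 of them tested. Called genes were 2 lower at P56 than at E18.5, 2 higher and 1 lower at E18.5 than at the early stages, and 1 lower at P14 than at E18.5, and no gene was called between P56 and P14 in limma, edgeR or DESeq2 (2 had an unadjusted limma p under 0.05). The 2 of 14 at P56 stood beside 14.2% of all tested genes called in that comparison, the 3 of 14 at E18.5 beside 29.1%, and the 1 of 14 at P14 beside 3.11%, so that the first 2 shares were near or under the general rate. The median log2 change was -0.17 at P56 against E18.5 and 0.35 at E18.5 against the early stages, beside 0.06 and 0.03 for all genes. Ppp1r3b, the subunit that directs protein phosphatase 1 to glycogen and favours synthesis in liver, had 4.96 units (E13.5), 23.7 (E15.5), 27.0 and 22.2 (E18.5), 1.10 (P14), and 1.42 and 0.324 (P56). The E15.5 value lay between those of the E18.5 libraries, and the postnatal libraries held only 4 reads (P14) and 5 and 1 reads (P56). Ppp1r3b fell to 0.873 ± 0.777 units at P56, against 24.6 ± 3.34 units at E18.5 (log2 change -3.83, limma adjusted p = 0.00206). The size of this fold is loose: on summed reads it was 27.0 (exact 95% interval 12.1 to 75.0, counting error only), and the ratio of the means was 17.3 without P56 replicate 2 and 75.9 without P56 replicate 1. Ppp1r3b was also lower at P14 than at E18.5 (-3.60, adjusted p = 0.0218).

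Phka2, the liver-type alpha subunit of the kinase that activates phosphorylase, had 1.18 units (E13.5), 3.23 (E15.5), 10.01 and 9.04 (E18.5), 3.30 (P14), and 1.71 and 0.648 (P56). It was lower at P56 than at E18.5 (log2 change -2.32, limma adjusted p = 0.0190, and 0.121 in DESeq2) and higher at E18.5 than at the early stages (1.79, limma adjusted p = 0.0276, and 0.215 in DESeq2). Without P56 replicate 2, edgeR did not call Phka2 at P56 against E18.5 (adjusted p = 0.122). Another targeting subunit, Ppp1r3c, had 4.25 units (E13.5), 96.9 (E15.5), 84.3 and 127 (E18.5), 97.1 (P14), and 86.8 and 91.7 (P56). All 6 libraries from E15.5 on were high and E13.5 alone was low: the log2 change at E18.5 was 2.20 against both early stages (limma adjusted p = 0.00109) and 0.09 against E15.5 alone (adjusted p = 0.882). The catalytic subunit Ppp1ca had 103 units (E13.5), 82.5 (E15.5), 55.1 and 50.1 (E18.5), 61.1 (P14), and 49.8 and 51.5 (P56), and was lower at E18.5 than at the early stages (-0.80, limma adjusted p = 0.0282, and 0.0826 in DESeq2). Without E18.5 replicate 2, edgeR did not call Ppp1ca (adjusted p = 0.0720).

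Glucose entry into the cell was followed by 8 genes, 5 of them tested, of which 1 was higher and 1 lower at P56 than at E18.5, where 14.2% of all tested genes were called and 6.15% were lower, with a median log2 change of -0.05, against 0.06 for all genes. The glucose transporter Slc2a1 had 318 units (E13.5), 503 (E15.5), 564 and 622 (E18.5), 98.8 (P14), and 222 and 195 (P56). All prenatal libraries were above all postnatal ones, a pattern whose share among all genes was not counted. Slc2a1 was named for its calls between these same stages. The change was -1.51 on the log2 scale at P56 (limma adjusted p = 0.00246) and -2.57 at P14 (limma adjusted p = 0.00250), each against E18.5. Hexokinase 2 (Hk2), which phosphorylates the glucose that enters, had 78.9 units (E13.5), 53.8 (E15.5), 62.0 and 57.3 (E18.5), 42.4 (P14), and 121 and 110 (P56), and was higher at P56 than at E18.5 (0.94, limma adjusted p = 0.0259, and 0.0711 in DESeq2). In edgeR the call of Hk2 was lost without E18.5 replicate 2 (adjusted p = 0.0509), P56 replicate 1 (0.170) or P56 replicate 2 (0.0853). With no filter on low values, limma called none of Ppp1r3b, Phka2, Slc2a1 and Hk2 at P56 against E18.5 (adjusted p = 0.0534 to 0.121). Of 8 other genes that make or use UDP-glucose, all tested, only Galt was called by limma, in 1 comparison and close to the threshold, where 29.1% of all tested genes were called, and the median log2 change in that comparison was -0.15, against 0.03 for all genes. Galt, which exchanges UDP-glucose for UDP-galactose, had 2.84 units (E13.5), 3.95 (E15.5), 9.24 and 9.42 (E18.5), 3.58 (P14), and 4.84 and 6.15 (P56), and was higher at E18.5 than at the early stages (1.25, limma adjusted p = 0.0499, and 0.0552 in edgeR). Against E15.5 alone, none of the 7 related genes called at E18.5 against both early stages passed in limma (adjusted p = 0.0798 for Pgm2 to 0.882 for Ppp1r3c).

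**Figure D4:**
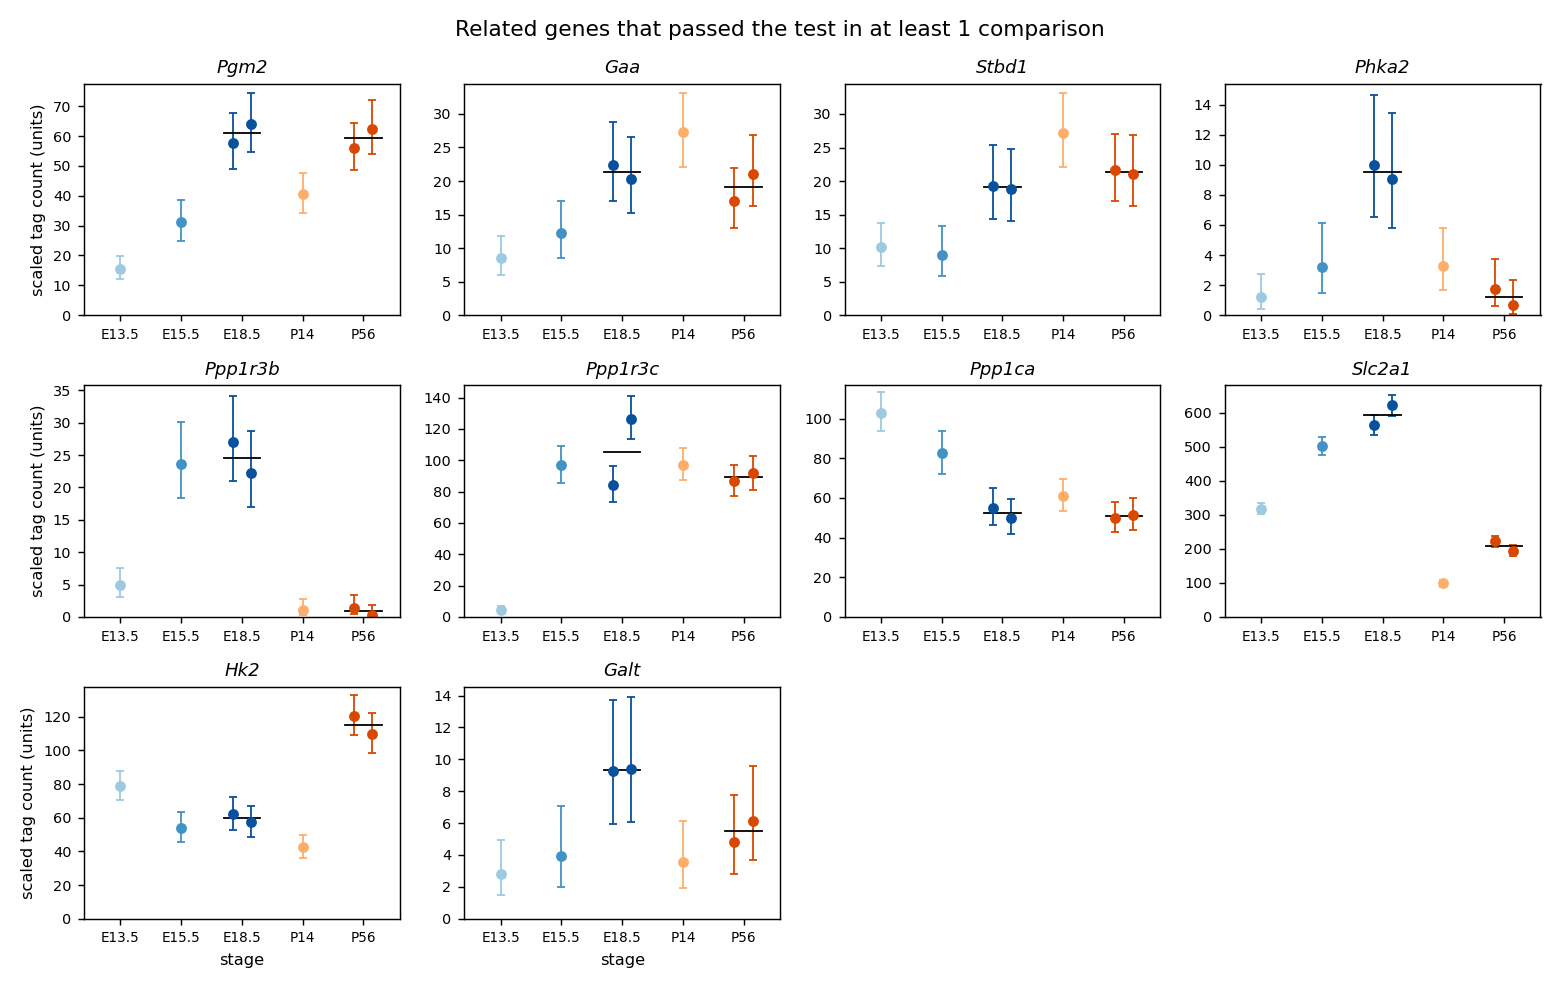
Scaled tag count (units, linear axes starting at 0) of the 10 genes from the other glycogen, regulator, glucose entry and UDP-glucose lists that limma called in at least 1 comparison. Points are libraries with exact 95% Poisson intervals, and black lines are means of 2 libraries. Phka2 (10.01 and 9.04 units), Galt (9.24 and 9.42) and Slc2a1 (564 and 622) had both E18.5 libraries above all others, as Pygl did. This pattern was found for 10.2% of all genes tested.

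Markers of cell types moved over the same stages. The sum of 10 alveolar type 2 markers was 0.0253% of reads (E13.5), 0.247% (E15.5), 1.01% and 0.929% (E18.5), 3.52% (P14), and 4.77% and 5.23% (P56), so that this sum was highest at P56, where Pygl was lowest. In limma 9 of the 10 were higher at P56 than at E18.5, with a median log2 change of 2.06. At E18.5 against the early stages 9 of the 10 were higher, as Pygl was, and 1 was lower, with a median of 4.45. Of all tested genes, limma called 14.2% at P56 against E18.5 (6.15% lower). At E18.5 against the early stages it called 29.1% (15.8% higher). Of the 9 alveolar type 1 markers, 8 were lower at P56 than at E18.5, with a median log2 change of -3.64, and all 9 were higher at E18.5 than at the early stages, with a median of 4.67. Pygl was also lower in the first of these comparisons, as 8 of the 9 were, and higher in the second, as all 9 were. At P14 against E18.5 limma called 0 of the 9, with 4 at an unadjusted p under 0.05, and edgeR and DESeq2 each called 1 (Clic5, lower at P14). Their sum was 0.00570% of reads (E13.5), 0.0737% (E15.5), 0.680% and 0.732% (E18.5), 0.625% (P14), and 0.317% and 0.356% (P56). Much of this sum at P56 was Aqp5, the one that was not called, with 2545 and 3000 units at P56 and 1931 and 2181 units at E18.5.

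Club and ciliated cell markers (6 of 7 analysed here) took 0.0189% to 0.237% of reads, and Tppp3 alone gave 8412 of their 9065 reads at P14. The ciliated cell factor Foxj1 had 0.236 units (E13.5), 56.0 (E15.5), 55.1 and 67.4 (E18.5), 11.00 (P14), and 66.9 and 73.2 (P56), and was lower at P14 than at E18.5 (log2 change -2.37, limma adjusted p = 0.0144). Of the 6 markers, limma called 2 higher and 1, Foxj1, lower in that comparison, beside 3.11% of all tested genes called. At P56 against E18.5 it called 3 of the 6 higher and 0 lower, beside 14.2% of all tested genes. The 6 markers of dividing cells took 0.0780% (E13.5) and 0.0647% (E15.5), and no more than 0.00162% in each later library. The 10 mesenchymal markers took 0.00390% to 0.0211% of reads, highest at E15.5, where Col3a1 had 215 reads. Of the 6 mesenchymal markers tested, Col1a1, Col1a2, Col3a1 and Tcf21 were lower at P56 than at E18.5 and Dcn was higher, with 249 and 136 reads at P56 and 16 and 1 reads at E18.5 (log2 change 4.18, limma adjusted p = 0.00921). The 6 endothelial markers took 0.000209% to 0.00215% of reads, Kdr having 1 to 34 reads a library, Cdh5 0 to 3 and Pecam1 0 to 4, and 4 immune markers took at most 0.000356%. The part of cell type composition in the changes of Pygl, Ppp1r3b and Phka2 was not tested.

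Genes whose values followed each tested member most closely were sought among 6341 genes with a mean of at least 10 units, by Pearson's r of log2(value + 1) over the 7 libraries, which belong to only 5 stages. For Pygl these were Rab11a (r = 0.98), a GTPase of recycling endosomes, Edn3 (0.97), which encodes endothelin 3, and Erbb2 (0.97), a receptor tyrosine kinase. Edn3 had 5.91 units at E13.5, 29.1 at E15.5, a mean of 38.6 at E18.5, 7.98 at P14 and a mean of 3.67 at P56, the widest range of the 3. Pygb was followed by Mlxip and Cab39 (r of 0.98 and 0.97), Gys1 by Necap2, Fgfr3 and R3hdm4 (0.97 to 0.99), and Gyg by Fam120a, Casp2 and Eif4b (0.95 to 0.99). Gbe1 was followed by Wdr11, Farp1 and Ptpn14 (0.97 to 0.98) and Ugp2 by Golga3, Tor1b and Myo9a (0.95 to 0.96). Among themselves the 6 genes had r over the same 7 libraries of -0.11 (Gbe1 with Ugp2) to 0.82 (Gyg with Pygl). These pairs were not picked for a high r, so they cannot be set against the r of the closest genes. Each r is that of the closest genes among the 6341 searched over only 7 libraries, and is given as a description.

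**Figure D5:**
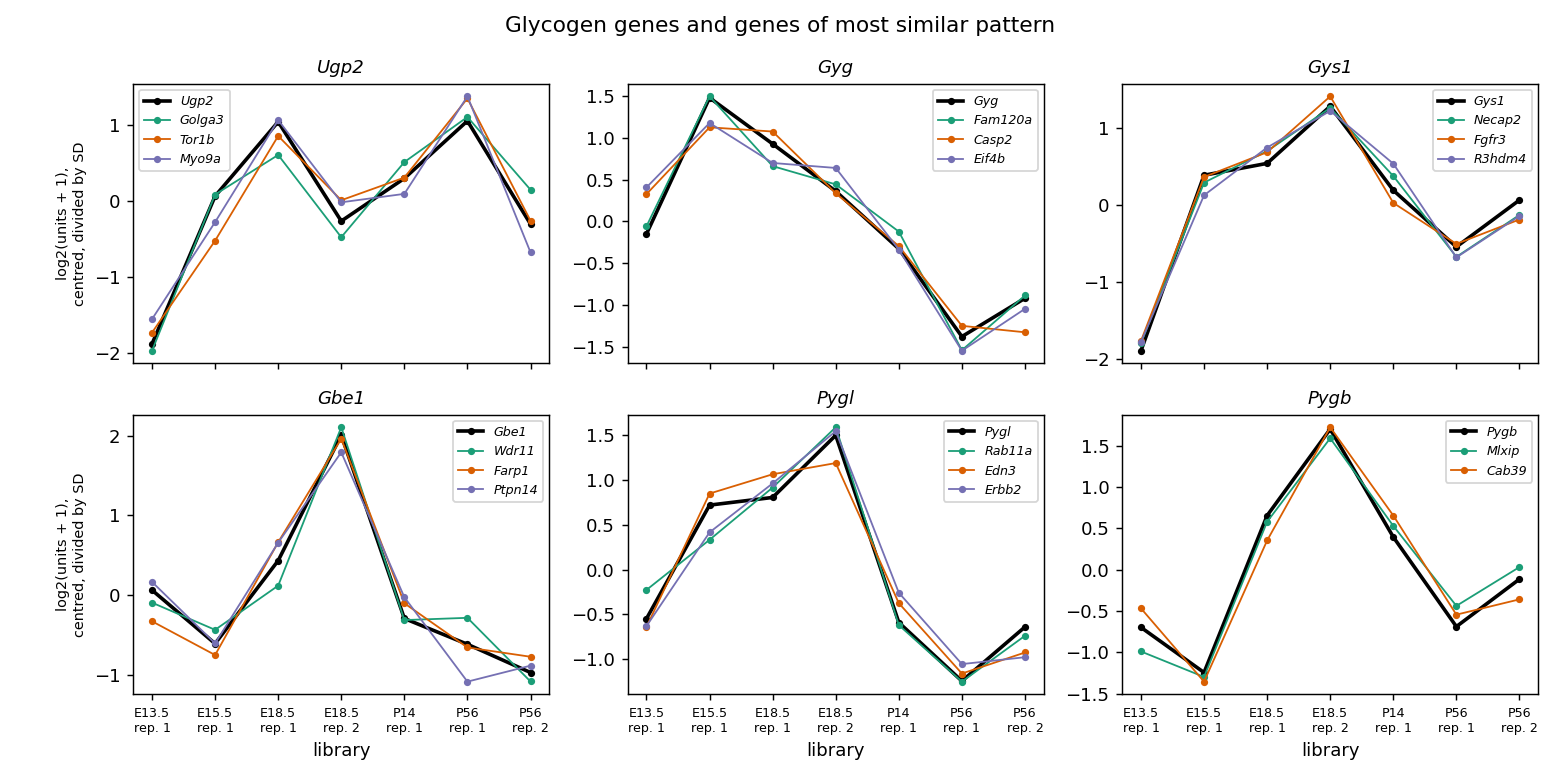
Log2(units + 1), centred and divided by its SD over the 7 libraries (vertical axis), by library (horizontal axis), for each of the 6 tested glycogen genes (black) and the genes of highest Pearson's r with it (colours, 3 for each except Pygb, with 2). Pygl and Rab11a, Edn3 and Erbb2 are highest in both E18.5 libraries; lines join libraries only to guide the eye.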

How the data were processed

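The labels' protocols give the sort, amplified polyadenylated RNA and 3' SAGE libraries read on an Ion Proton. The submitters' processing notes name the mm10 build (GRCm38), R 3.4.0 and Bowtie2 2.2.5, while the tag counter, the annotation and the scaling method are not given in the sources used here. Each deposited value is a scaled signal, a tag count that the authors divided by 1 factor per library: 100% of values were whole reads within 0.01 reads once divided by the smallest step. These recovered reads gave depths and intervals.

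Of 21121 genes, 12964 passed edgeR's filterByExpr by stage and were tested with limma-trend (limma 3.58.1, robust) on log2(value + 1), in 1 fit of all 7 libraries with a coefficient per stage and 2 residual degrees of freedom. Genes with a Benjamini-Hochberg adjusted p under 0.05 over all 12964 were called. The pseudocount of 1 pulls log2 changes of low genes towards 0. edgeR 4.0.16 and DESeq2 1.42.0 on the recovered reads, other pseudocounts, filters and scalings, a replicate block and leaving out each replicated library were alternatives. Scripts were tested on simulated data.

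The members, lists and tests were chosen with earlier results of these data known. All members are named; of the other pathway lists, called genes with the largest log2 change, up to 4 per list and comparison. Promoter windows come from RefSeq. No gene was analysed here under the symbols Gys2, Gyg1, G6pc, G6pc2, Ppp1r3d and Slc2a2, and glycogenin was analysed as Gyg. From the lists, 1 gene, and from the search for similar patterns 1 gene, are not reported here.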

Additional observations from a re-analysis of the deposited data

How the results depend on the processing

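Of 552 alternatives for the 6 tested glycogen genes, 506 kept direction and side of the threshold, 20 lost a call, 10 gained one and 16 changed sign. Only Pygl had calls to lose, and an uncalled result that stayed uncalled counted as kept. Its call was lost in 6 and kept in 12 alternatives over the 5 stages. For Pygl at E18.5 against the early stages 9 lost it and 11 kept it, and at P56 against E18.5 5 lost it and 13 kept it. Of 248 for the related genes that were called, 138 kept and 110 lost the call, none changing sign. At P14 against E18.5, Ppp1r3b and Slc2a1 lost their limma calls without robust variances (adjusted p = 0.103 and 0.0630). The sign changes were all in uncalled log2 changes near 0. Over the limma fits with 1 replicated library left out, Ugp2 ran from -0.25 to 0.24 at P56 against E18.5 and from -0.27 to 0.20 at P14 against E18.5. It ran from -0.21 to 0.27 at P56 against P14. In edgeR it turned to 0.22 and 0.18 at P56 against E18.5 without E18.5 replicate 1 and P56 replicate 2, to 0.15 at P14 against E18.5 without E18.5 replicate 1, and to -0.24 at P56 against P14 without P56 replicate 1. Gyg at E18.5 against the early stages ran from -0.15 to 0.13 in limma with 1 library left out. It turned to 0.0069 with TMM scaling, 0.022 in edgeR, 0.0035 with the replicate block, 0.17, 0.022 and 0.00018 in edgeR without E18.5 replicate 2, P56 replicate 1 and P56 replicate 2, and 0.40 against E13.5 alone.

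Counts of called genes moved with the filter, the spread estimate and the tool. Over all stages 3930 genes were called, 2550 without robust variances. At P56 against E18.5 they numbered 1843, and 679 with no filter or 1125 without robust variances. At E18.5 against the early stages they were 3779, against 2443 in DESeq2 and 1366 against E15.5 alone. At P14 against E18.5 they were 403, against 1051 with no filter, 6 without robust variances and 686 in edgeR. At P56 against P14 they were 106, against 800 with no filter, 267 in edgeR, 200 in DESeq2 and 0 in limma without robust variances (1388 at an unadjusted p under 0.05).

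Leaving out 1 library leaves 1 residual degree of freedom, and limma then called 0 genes in all 5 results, with 669 to 4678 genes at an unadjusted p under 0.05. With edgeR, an alternative added after the data were seen, the counts without E18.5 replicates 1 and 2 and P56 replicates 1 and 2 were 6902, 6614, 3659 and 3939 over all stages, 2797, 2338, 1216 and 1171 at P56 against E18.5, 1614, 1162, 564 and 662 at P14 against E18.5, and 744, 740, 128 and 168 at P56 against P14. At E18.5 against the early stages they were 3564 to 4561. The lone library of a stage is then assumed to vary like the others.

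Nothing in the labels says that replicate numbers pair libraries, and deviations of same-numbered libraries were uncorrelated over genes (r = 0.0098). With the replicate block the counts were 1561, 894, 1893, 16 and 0 in the order above (1087 at an unadjusted p under 0.05 for the last), and Pygl at E18.5 against the early stages had an adjusted p of 0.0953. Depth limits Gbe1 and Pygm most, with 66 and 8 reads in all.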
